A study of Mus musculus with 88 samples.

Results

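The TRIM (tripartite motif) genes were followed in whole blood of SNF1 mice, a lupus-prone hybrid, after an injection of pristane and in spontaneous disease. Members were the genes whose symbol in the array's probe annotation begins with Trim and a digit, with 1 gene left out, and each was read from the single-gene probe set with its highest mean over all arrays. This gave 50 TRIM genes of 17097 genes with a single-gene probe set. The genes were chosen by symbol, though with earlier results of these data known. There were 88 Affymetrix mouse arrays in 11 groups of 8, and each array was treated as 1 mouse.

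All mice were SNF1 females, the first-generation cross of SWR and NZB, which develop lupus nephritis without treatment. Pristane, a hydrocarbon oil, had been injected into the peritoneum before clinical disease, and blood was drawn 2, 4, 8, 12 and 14 weeks later. The group with spontaneous disease was 36 weeks old, was not treated and was chosen by the study for its proteinuria. Untreated mice matched for age were bled at the same weeks 2, 4, 8, 12 and 14. Week 36 is an age whereas the other weeks count from the injection, and no mice of 36 weeks without disease were analysed, so age and disease cannot be told apart in that group. The spontaneous group was set against untreated mice of week 14, which also served as control for pristane at week 14.

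TRIM proteins carry a RING finger, B-boxes and a coiled coil, and most act as ubiquitin ligases. Many of them restrict viruses or tune the sensing of nucleic acids, and a number of their genes are induced by type I interferon, a cytokine that marks the blood of many lupus patients. Members with other carboxy-terminal domains serve chromatin silencing, the cytoskeleton, muscle or neurons.

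Of the 15 interferon-linked TRIM genes listed for this work, 10 had a single-gene probe set (Trim5, Trim6, Trim12a, Trim12c, Trim14, Trim21, Trim25, Trim30a, Trim30d and Trim34a). The only TRIM gene listed as erythroid, Trim58, which helps red cell precursors shed their nucleus, had no single-gene probe set and is not analysed here. The same holds for Trim26, Trim30b, Trim30c, Trim34b and Trim56. In the mouse reference annotation (GRCm38.p6), 10 TRIM genes follow one another on chromosome 7 in the order Trim6, Trim34a, Trim5, Trim12a, Trim34b, Trim12c, Trim30b, Trim30c, Trim30a and Trim30d, with 1 other protein-coding gene between them. Of these 10 clustered genes, 7 were measured. They belong to a group of recent duplicates, so probes may detect more than the gene they are assigned to, and 5 further TRIM probe sets listed with several genes were not used.

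Promoter sequence is shown for the cluster, because the genes that rose after pristane lie there, and for Trim21, an interferon-linked gene outside it. Sequences are from RefSeq (GRCm38.p6), on the strand of the gene, from 70 bases before the transcription start through the first 30 bases from it. Capitals mark matches to GAAANNGAAA, the core of the interferon-stimulated response element, searched on both strands with overlaps allowed. In the cluster the match reads TTTCNNTTTC, the reverse complement, on the gene's strand, and Trim21 has a pair of overlapping matches. The windows are chr7:104465164-104465263 for Trim30a, chr7:104507820-104507919 for Trim30d, chr7:104244387-104244486 for Trim34a, chr7:104353320-104353419 for Trim12c, chr7:104288077-104288176 for Trim5, chr7:104315466-104315565 for Trim12a, chr7:104218725-104218824 for Trim6 and chr7:102565453-102565552 for Trim21. Trim34a and Trim6 lie on the plus strand and the others on the minus strand.
Trim30a: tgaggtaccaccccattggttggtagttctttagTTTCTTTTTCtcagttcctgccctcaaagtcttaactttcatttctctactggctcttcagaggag
Trim30d: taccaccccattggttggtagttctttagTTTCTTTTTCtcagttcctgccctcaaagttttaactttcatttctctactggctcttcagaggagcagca
Trim34a: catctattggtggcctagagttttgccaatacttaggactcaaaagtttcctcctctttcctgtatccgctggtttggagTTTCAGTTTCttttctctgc
Trim12c: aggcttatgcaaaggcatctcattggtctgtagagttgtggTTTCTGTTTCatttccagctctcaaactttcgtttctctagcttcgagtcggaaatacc
Trim5: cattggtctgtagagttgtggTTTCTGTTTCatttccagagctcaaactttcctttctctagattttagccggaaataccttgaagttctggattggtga
Trim12a: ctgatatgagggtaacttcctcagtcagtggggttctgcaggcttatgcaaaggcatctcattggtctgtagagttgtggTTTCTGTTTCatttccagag
Trim6: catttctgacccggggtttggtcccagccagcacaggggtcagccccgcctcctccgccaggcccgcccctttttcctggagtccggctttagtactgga
Trim21: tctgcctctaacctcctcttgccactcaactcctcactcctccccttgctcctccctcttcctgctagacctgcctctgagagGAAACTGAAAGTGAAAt

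Promoters were listed for 40 of the 50 TRIM genes, and 8 of these 40 had a match within the 300 bases of the table (250 before the start and 50 from it on): Trim2, Trim5, Trim12a, Trim12c, Trim21, Trim30a, Trim30d and Trim34a. Counted by promoter, since a gene can have several, 9 of the 54 listed for these genes had a match. Over all 32851 promoters of that length, 1131 had a match (3.44%). Trim30a has a second listed start, and its window (chr7:104446096-104446195) also held a match. The windows of Trim30a and Trim30d shared a run of 59 bases that includes the match, as did those of Trim12a and Trim12c, and Trim12a and Trim5 shared a run of 41 bases. The window of Trim6 had no match, nor did that of Trim25, an interferon-linked gene outside the cluster whose sequence is not shown. A match is a description of the letters and not a binding site.

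After pristane, 5 genes of the cluster rose in single weeks before week 14, and no other TRIM gene did. At week 2, Trim30a, Trim30d, Trim34a, Trim12c and Trim5 rose, all more than 2-fold, and none of the 50 TRIM genes fell. Genes were called at an adjusted p below 0.05, with the adjustment over every probe set of 1 limma fit to the 11 group means. Of all 17097 genes, 2.29% rose and 1.29% fell at week 2 (1.15% rose past 2-fold), against 5 and 0 of the 50 TRIM genes. In either direction, 11 of the 50 had an unadjusted p under 0.05 at week 2, 10 at week 4 and 13 at week 8 (all genes 17.1%, 13.4% and 13.3%). At week 4, 4 TRIM genes rose and 0 fell (all genes 2.18% and 0.801%), and 2 of the 4 passed 2-fold (all genes 1.33%). At week 8, 5 rose and 0 fell (all genes 1.85% and 0.778%), and 4 passed 2-fold (all genes 1.11%). At week 12, 4 rose and 2 fell (all genes 2.70% and 1.06%), and 2 of the risen passed 2-fold (all genes 1.25%). The genes that rose at weeks 4, 8 and 12 were all among the 5 of week 2. The median change of the 50 TRIM genes lay between -0.02 and 0.03 on the log2 scale in these 4 weeks. In bulk blood, fewer cells of a type and less RNA per cell cannot be told apart.

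**Figure D1:**
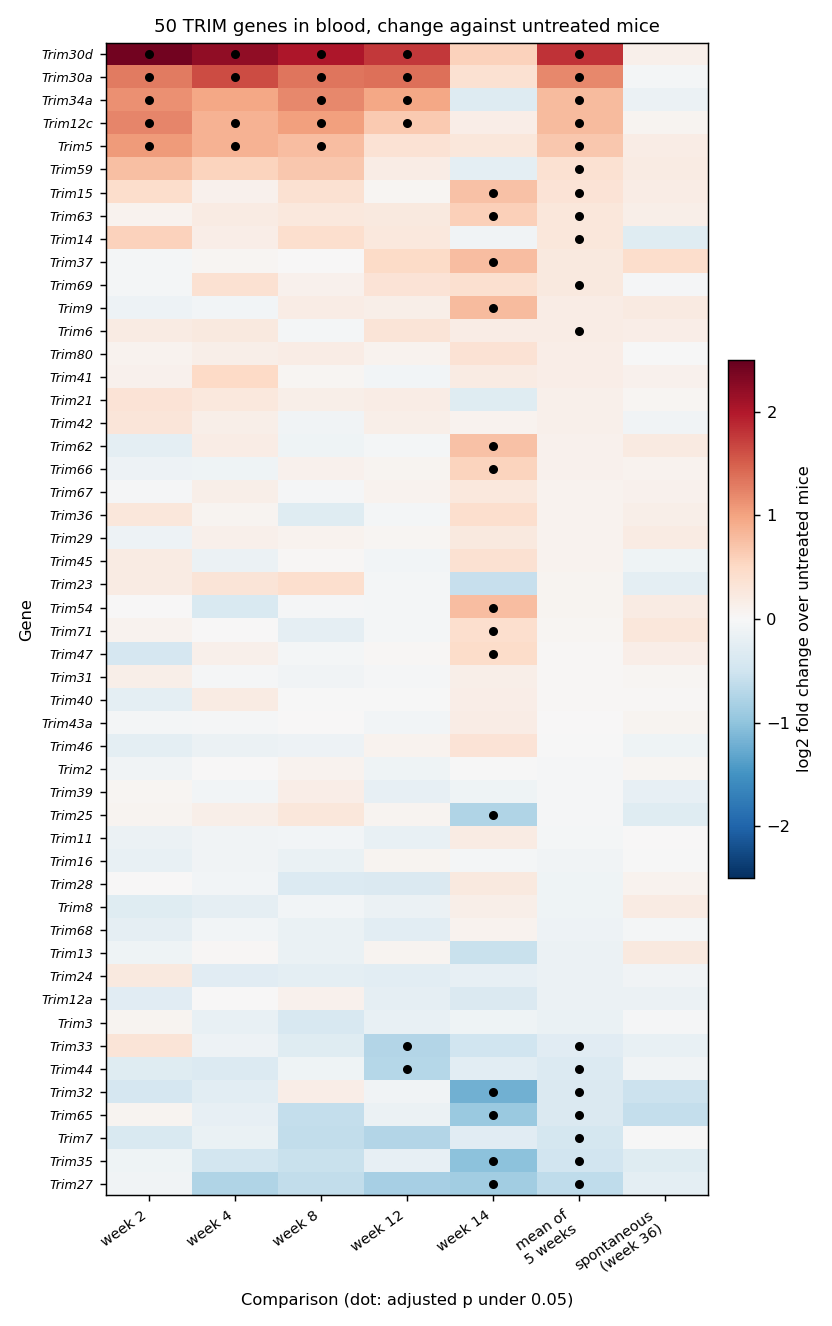
Colour gives the log2 fold change over untreated mice for 50 TRIM genes (vertical) in 7 comparisons (horizontal), sorted by the mean of the 5 weeks, and a dot marks an adjusted p under 0.05. The 5 top genes are orange to dark red at weeks 2 to 12, apart from Trim5 at week 12, and pale at week 14, where a different block of genes carries the dots, and the spontaneous column has none.

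Trim30a, whose mouse product restrains Toll-like receptor signalling to NF-kB, was measured by a bright probe set. At week 2 its log2 signal ran from 9.41 through a median of 9.70 to 10.15 in pristane mice and from 8.16 through 8.49 to 8.87 in untreated mice. Every pristane array lay above every untreated array, as in 0.690% of all genes that week, a 2.46-fold rise (95% CI 1.85 to 3.26, adjusted p = 7.1e-06). At week 4 the signal ran from 8.60 through 9.76 to 10.24 in pristane mice and from 6.98 through 8.11 to 8.63 in untreated mice, a 3.11-fold rise (95% CI 2.34 to 4.13, adjusted p = 1.6e-08). Only the lowest pristane array, replicate 1, reached into the untreated range. That array also had the lowest level of 21 interferon effector genes among the week 4 pristane mice (6.52, group mean 8.08). Trim30a was 2.53-fold higher at week 8 (adjusted p = 3.7e-06) and 2.59-fold higher at week 12 (adjusted p = 3.3e-06), again with no overlap between the groups (0.667% and 0.801% of all genes).

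Trim30d, a close paralogue of Trim30a, had the largest change of the 50 TRIM genes at weeks 2, 4, 8 and 12. At week 2 its log2 signal ran from 5.74 through 6.72 to 7.51 in pristane mice and from 3.59 through 4.28 to 5.34 in untreated mice. The groups did not overlap, and the rise was 5.33-fold (95% CI 3.37 to 8.44, adjusted p = 2.3e-07). At week 4 it was 4.62-fold (95% CI 2.92 to 7.32, adjusted p = 2.4e-06), again with separate groups. Trim30d was 4.04-fold higher at week 8 (adjusted p = 2.1e-05) and 3.43-fold higher at week 12 (adjusted p = 0.00026). In both of those weeks the groups overlapped, at week 12 through 1 pristane array at 4.63.

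Trim5 and Trim12c are mouse relatives of primate TRIM5, which binds the capsids of incoming retroviruses. Trim5 had a log2 signal of 8.33 to 8.83 (median 8.54) in pristane mice and 7.21 to 7.81 (median 7.53) in untreated mice at week 2. All pristane arrays were above all untreated arrays at weeks 2, 4 and 8, as in 0.690%, 0.152% and 0.667% of all genes. The rise was 2.08-fold at week 2 (95% CI 1.76 to 2.45, adjusted p = 7.7e-10), 1.83-fold at week 4 (adjusted p = 2.4e-07) and 1.70-fold at week 8 (adjusted p = 6.4e-06). At week 12 the change was 1.28-fold and did not pass (95% CI 1.08 to 1.51, adjusted p = 0.099). Trim12c had a log2 signal of 5.97 to 7.59 (median 7.12) in pristane mice and 5.25 to 6.36 (median 5.78) in untreated mice at week 2. A single pristane array, replicate 8, fell within the untreated range, and the rise was 2.32-fold (95% CI 1.80 to 2.99, adjusted p = 2.6e-06). Trim12c was 1.82-fold higher at week 4 (adjusted p = 0.0016), 2.02-fold at week 8 (adjusted p = 0.00012) and 1.58-fold at week 12 (adjusted p = 0.026).

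Trim34a, whose human relative TRIM34 acts with TRIM5 on retroviral capsids, rose at weeks 2, 8 and 12. Its log2 signal at week 2 was 6.28 to 7.82 (median 7.09) in pristane mice and 4.85 to 6.28 (median 6.15) in untreated mice. The groups met at their edges, and the rise was 2.20-fold (95% CI 1.48 to 3.28, adjusted p = 0.012). It was 2.29-fold at week 8 (95% CI 1.54 to 3.41, adjusted p = 0.0082) and 1.97-fold at week 12 (95% CI 1.32 to 2.93, adjusted p = 0.042). At week 4 the change of 1.95-fold did not pass (95% CI 1.31 to 2.91, adjusted p = 0.052), though it passed in 8 of 9 alternative settings, by 1.12 on the log2 scale with the erythroid level as a covariate (adjusted p = 0.0029).

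**Figure D2:**
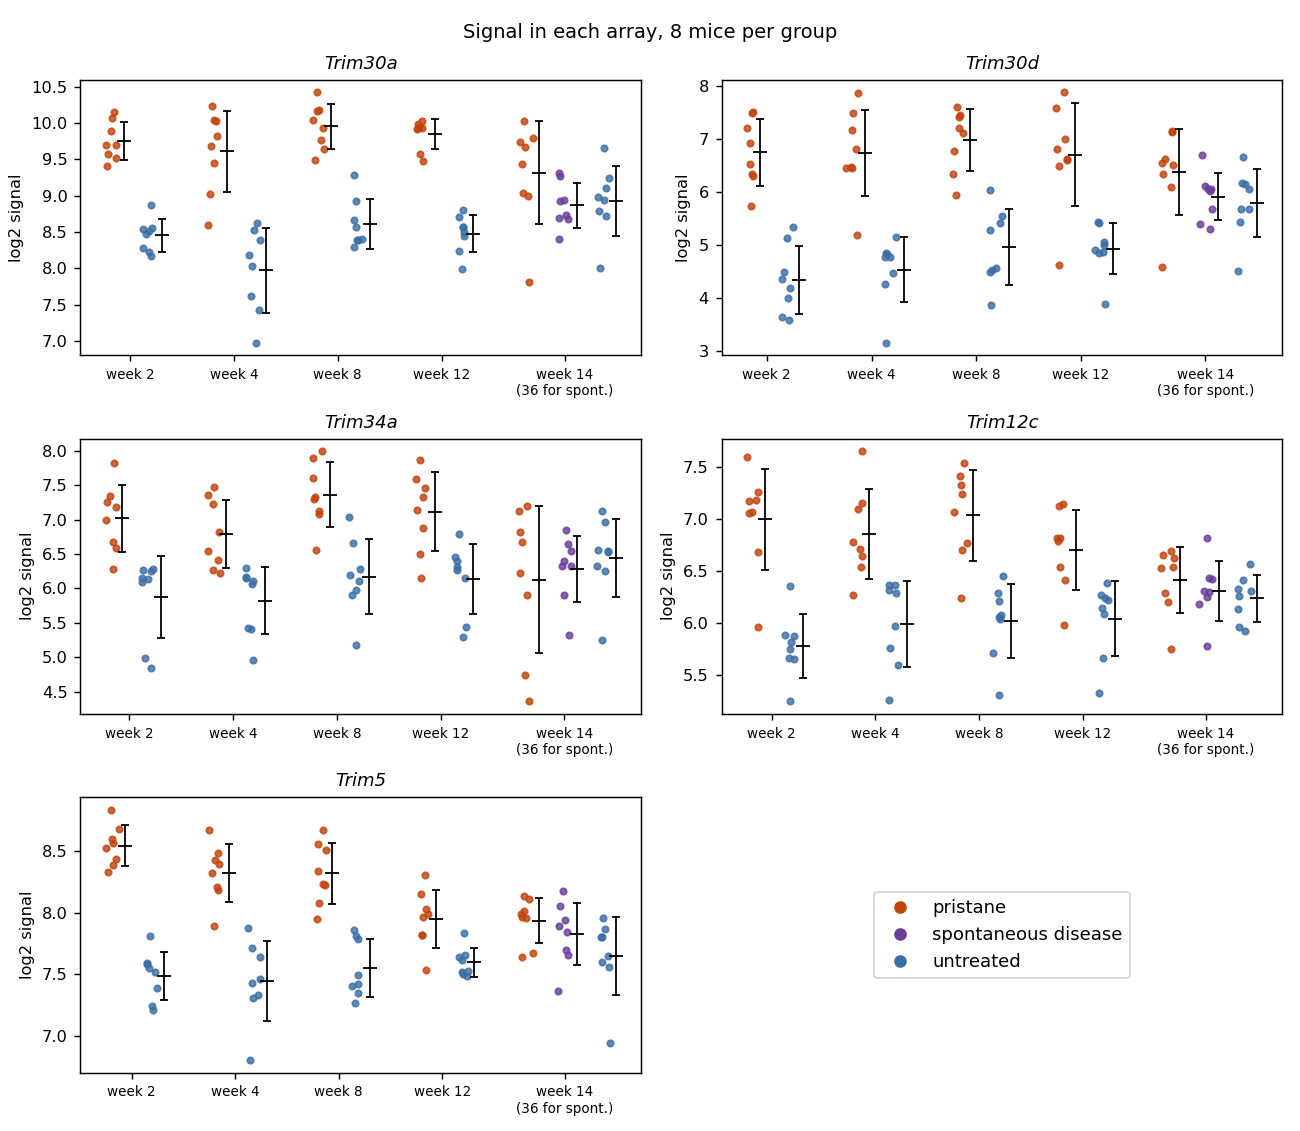
Each point is the log2 signal of 1 array, by week, with pristane mice left of untreated mice and the spontaneous group between them at week 14, and the bar gives the mean with its SD (n = 8). Pristane arrays sit above most or all untreated arrays at weeks 2, 4 and 8 in the 5 genes, while the groups overlap in all 5 at week 14.

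The 14 calls of these 5 genes at weeks 2, 4 and 8 were kept under the 9 alternative settings and with each of the 16 arrays of a week left out. The 4 calls of week 12 were less firm. There, Trim34a lost its call without any of 11 of the 16 arrays (largest adjusted p = 0.11) and Trim12c without any of 5 (largest adjusted p = 0.092). Where a gene had further probe sets, these were dimmer. The other Trim30a set rose by 1.17 on the log2 scale at week 2 (adjusted p = 0.00062) and passed in no later single week. One of the other Trim30d sets rose at weeks 2, 4, 8 and 12, by 0.95, 1.20, 0.96 and 0.97 on the log2 scale. The other Trim12c set was higher by 0.56 at weeks 2 and 4 without passing (adjusted p = 0.054 and 0.062), and rose at week 14 (0.47, adjusted p = 0.043).

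The other measured genes of the cluster behaved differently. Trim12a, another mouse relative of TRIM5, had a log2 signal of 3.66 to 4.53 (median 3.88) in pristane mice and 3.53 to 4.99 (median 4.35) in untreated mice at week 2. The groups overlapped, and the log2 change was -0.29 (95% CI -0.67 to 0.09). In the other 4 weeks it lay between -0.36 and 0.11, with no call. Trim6, which builds unanchored ubiquitin chains in interferon signalling, was dim throughout, with group means between 1.63 and 2.19. It was called only in the mean of the 5 weeks, at 1.13-fold (95% CI 1.03 to 1.24, adjusted p = 0.039), and lost that call without any of 13 of the 80 arrays.

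**Figure D3:**
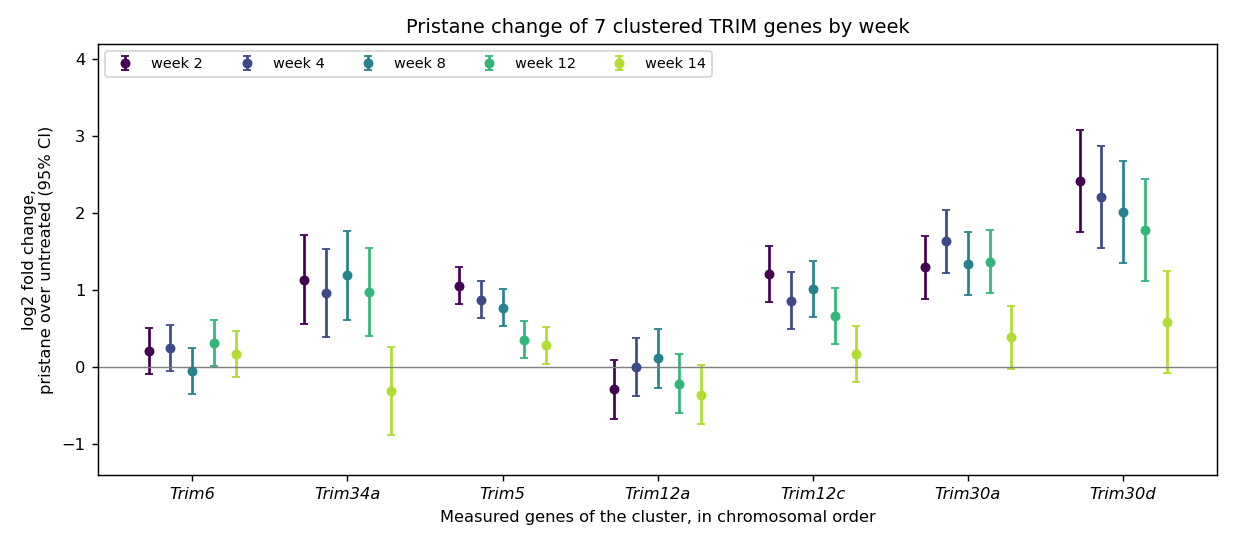
Points give the log2 fold change of pristane over untreated mice with 95% confidence intervals (vertical) for the 7 measured genes of the chromosome 7 cluster in chromosomal order (horizontal), one colour per week. Trim34a, Trim5, Trim12c, Trim30a and Trim30d lie above 0 at weeks 2 to 12, with Trim30d between 1.78 and 2.41, whereas Trim6 and Trim12a lie between -0.36 and 0.32 in all 5 weeks.

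Outside the cluster, the interferon-linked genes Trim21, Trim14 and Trim25 passed in no single week from week 2 to week 12. Trim21, the cytosolic antibody receptor that is also the lupus autoantigen Ro52, had a log2 signal of 7.03 to 8.12 (median 7.82) in pristane mice and 6.98 to 7.76 (median 7.37) in untreated mice at week 2. The groups overlapped, and 1.27-fold did not pass (95% CI 1.01 to 1.60, adjusted p = 0.27). Its week 4, 8 and 12 changes were 0.27, 0.14 and 0.18 on the log2 scale, with no call. With the level of 18 erythroid genes as a covariate, Trim21 passed at week 2 (0.52, adjusted p = 0.023). Trim14, a mitochondrial adaptor in antiviral signalling, had a signal of 5.63 to 6.63 (median 6.27) in pristane mice and 5.33 to 6.17 (median 5.58) in untreated mice at week 2. The change of 1.50-fold there missed the threshold (95% CI 1.16 to 1.94, adjusted p = 0.064) but passed after quantile normalization (0.62, adjusted p = 0.011), and Trim14 rose only in the mean of the 5 weeks, by 1.21-fold (adjusted p = 0.0099). Trim25, the ubiquitin ligase of the RNA sensor RIG-I, changed by 0.07, 0.14, 0.28 and 0.06 on the log2 scale at weeks 2, 4, 8 and 12, with no call.

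Over all 10 measured interferon-linked TRIM genes, the median log2 change was 0.82 at week 2, 0.57 at week 4, 0.60 at week 8, 0.33 at week 12 and 0.05 at week 14. The medians of all genes were -0.02, 0.00, -0.01, 0.01 and 0.12 in the same weeks. A list of 25 interferon effectors (Ifit, Oas and Mx genes and the like), of which 21 were measured, had 14 risen at week 2 and 14 at week 14, with median log2 changes of 2.09 and 1.40. Ifit1, for example, rose by 3.75 at week 2 and by 2.54 at week 14. The effect of pristane at week 14 minus week 2 was lower for 2 of the 21 (Mx1 and Usp18) and higher for 1 (Lgals3bp). Of 24 genes of nucleic acid sensing and interferon signalling, 21 were measured. At week 2, 4 of them rose (Ifih1, Dhx58, Irf7 and Irf9) and 1 fell (Jak1), where 2.29% of all genes rose and 1.29% fell. At week 14, 4 rose (Ifih1, Dhx58, Mavs and Irf7) and 2 fell (Ikbkg and Jak1), where 12.7% of all genes rose and 9.72% fell. Mefv, which encodes pyrin and is related to the TRIM family, rose by 1.30 at week 2 and 1.01 at week 14 (adjusted p = 0.0099 and 0.017).

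Genes outside the TRIM family whose 11 group means followed those of Trim30a most closely were Emilin2 (r = 0.974), Parp12 (r = 0.974), Cmpk2 (r = 0.972), Irf9 (r = 0.969) and C5ar1 (r = 0.967), out of 10597 genes compared. These correlations are a description over 11 group means that share the contrast of pristane with untreated mice. Levels of 12 neutrophil marker genes (15 listed) moved with the same contrast. Their mean was 9.07 in pristane mice (8.51 to 9.48) and 7.35 in untreated mice (6.91 to 8.34) at week 2, and 9.36 (8.41 to 10.04) and 8.00 (7.63 to 8.50) at week 14. Their part in the rises of TRIM genes was not tested.

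At week 14 the pattern was different. None of the 7 genes of the cluster passed, while 9 other TRIM genes rose and 5 fell, of which 0 and 2 passed 2-fold. Of all genes, 12.7% rose and 9.72% fell in that week, and 1.87% and 1.93% did so past 2-fold. Trim30a had a log2 signal of 7.81 to 10.03 (median 9.55) in pristane mice and 8.00 to 9.65 (median 8.96) in untreated mice, and the groups overlapped (1.31-fold, 95% CI 0.985 to 1.74, adjusted p = 0.17). Trim30d ran from 4.59 through 6.53 to 7.16 in pristane mice and from 4.50 through 5.87 to 6.66 in untreated mice (1.50-fold, 95% CI 0.946 to 2.37, adjusted p = 0.20). With the mean of all probe sets of a gene, Trim30a and Trim30d changed by 0.060 and 0.065 on the log2 scale at week 14 and did not pass (adjusted p = 0.83 for both). Trim30a passed as higher at week 14 with centring on the brightest probe sets (0.50, adjusted p = 0.039) or with array weights (0.47, adjusted p = 0.036), and both genes passed with the interquartile range of the array as a covariate (0.71 and 1.01, adjusted p = 0.0028 and 0.016). With that last covariate Trim11 and Trim41 also passed as higher and Trim12a as lower, while the week 14 calls of Trim25, Trim27, Trim65, Trim37 and Trim66 were lost (adjusted p = 0.064, 0.20, 0.22, 0.11 and 0.070). The changes of Trim5, Trim12c and Trim34a were 0.29, 0.17 and -0.31 on the log2 scale (adjusted p = 0.077, 0.51 and 0.45).

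The difference of the pristane effect, week 14 minus week 2, was tested directly. Of the 50 TRIM genes, 3 had a higher effect at week 14 and 5 a lower one, against 4.19% and 2.67% of all genes. The 5 with a lower effect were the 5 risen genes of the cluster, and the 3 with a higher one were Trim47, Trim62 and Trim66 (0.88, 0.97 and 0.68, adjusted p = 0.015, 0.013 and 0.041). On the log2 scale the difference was -1.83 for Trim30d (95% CI -2.77 to -0.89, adjusted p = 0.011), -1.45 for Trim34a (adjusted p = 0.021) and -1.04 for Trim12c (adjusted p = 0.0083). It was -0.91 for Trim30a (adjusted p = 0.043) and -0.77 for Trim5 (adjusted p = 0.0029). The call of Trim30a was lost without any of 15 of the 32 arrays and under 5 alternative settings, that of Trim66 without any of 16 and under 5 settings, and that of Trim34a without pristane week 14 replicate 4 or 7. The call of Trim34a was also lost with the interquartile range as a covariate (adjusted p = 0.088) or with only the compared groups in the fit (adjusted p = 0.062), and that of Trim12c with the mean of all probe sets of a gene (adjusted p = 0.067).

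The arms were also tested apart, comparisons added after seeing the data. Week 14 against week 2, 2 TRIM genes rose and 5 fell in pristane mice (all genes 8.08% and 4.22%), and 3 rose and 5 fell in untreated mice (24.3% of all genes called in either direction). Trim30d changed by -0.38 on the log2 scale in pristane mice and did not pass (adjusted p = 0.56), whereas in untreated mice it was 2.74-fold higher at week 14 (95% CI 1.73 to 4.33, adjusted p = 0.0017). Trim5 was 1.52-fold lower at week 14 than at week 2 in pristane mice (adjusted p = 0.00016), with all week 14 arrays below all week 2 arrays (as in 0.386% of all genes), and its change in untreated mice was 0.16 (adjusted p = 0.33). Trim34a and Trim12c were also lower at week 14 than at week 2 in pristane mice, by 1.85-fold and 1.50-fold (adjusted p = 0.032 and 0.025). Trim59, whose log2 signal ran from 7.38 through 8.00 to 8.90 in pristane mice of week 14 and from 8.85 through 9.74 to 10.06 in those of week 2, was 2.75-fold lower at week 14 (95% CI 1.95 to 3.87, adjusted p = 1.1e-05). The difference of the pristane effect between weeks 14 and 2 was not called for Trim59 in the main fit, so its fall was not shown to be particular to pristane mice. In untreated mice between week 14 and week 12, no TRIM gene passed (11 of 50 at an unadjusted p under 0.05, all genes 17.0%), against 0.0351% of all genes in each direction. The difference of the effects at week 14 and week 12 passed for none of the 50, with Trim30a nearest (-0.98, adjusted p = 0.0504) and 14 at an unadjusted p under 0.05 (16.8% of all genes, with 0.877% called higher and 1.28% lower). With untreated mice of week 12 as control for pristane mice of week 14, Trim30a was higher by 0.84 and Trim30d by 1.45 on the log2 scale, and both passed (adjusted p = 0.0028 and 0.0013), as the only TRIM genes risen. The share of all genes called was not counted with that control.

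The 5 genes that fell at week 14 were Trim32, Trim35, Trim65, Trim27 and Trim25. Trim32, a ligase whose human gene is mutated in a limb-girdle muscular dystrophy, had a log2 signal of 3.24 to 4.59 (median 3.61) in pristane mice and 4.57 to 5.22 (median 4.87) in untreated mice. Only the highest pristane array reached the untreated range, and the fall was 2.30-fold (95% CI 1.60 to 3.31, adjusted p = 0.00041). In untreated mice of weeks 2 to 12, Trim32 averaged between 4.03 and 4.40, and the untreated group of week 14, at 4.89 ± 0.26 (SD, n = 8), was the highest of the 11 groups. Against untreated mice of week 12 its change was -0.43 and did not pass (adjusted p = 0.37).

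Trim35, a gene first described in blood cell lineages, had a log2 signal of 6.69 to 8.11 (median 7.40) in pristane mice and 8.02 to 8.58 (median 8.46) in untreated mice at week 14. The ranges overlapped at their edges, and the fall was 2.04-fold (95% CI 1.48 to 2.81, adjusted p = 0.00058). It remained lower against untreated mice of week 12 (-0.70, adjusted p = 0.038) as the only TRIM gene to fall, with the share of all genes not counted. The other probe sets of Trim35 changed by 0.21 and -0.07 on the log2 scale and did not pass.

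Trim65, a ligase of the RNA sensor MDA5, had a signal of 4.57 to 6.88 (median 5.77) in pristane mice and 6.002 to 7.04 (median 6.85) in untreated mice, a 1.92-fold fall (95% CI 1.28 to 2.87, adjusted p = 0.015). Trim27, the Ret finger protein, ran from 5.46 through 6.32 to 6.48 in pristane mice and from 6.08 through 7.16 to 7.50 in untreated mice, a 1.82-fold fall (95% CI 1.28 to 2.57, adjusted p = 0.0091). Its log2 changes of -0.10, -0.74, -0.62 and -0.82 at weeks 2, 4, 8 and 12 did not pass (adjusted p = 0.90, 0.11, 0.24 and 0.052), the last of them passing in 8 of 9 alternative settings. In the mean of the 5 weeks, which includes week 14, Trim27 fell by 0.63 (adjusted p = 7.4e-06). The other 2 Trim27 probe sets were dim and changed by -0.09 and 0.01 at week 14. Trim25 had a signal of 5.24 to 7.04 (median 6.77) in pristane mice and 6.79 to 7.76 (median 7.27) in untreated mice, a 1.68-fold fall (95% CI 1.24 to 2.28, adjusted p = 0.0090). That call was lost without pristane week 14 replicate 4 (adjusted p = 0.056), and the one of Trim65 without replicate 7 (adjusted p = 0.063).

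**Figure D4:**
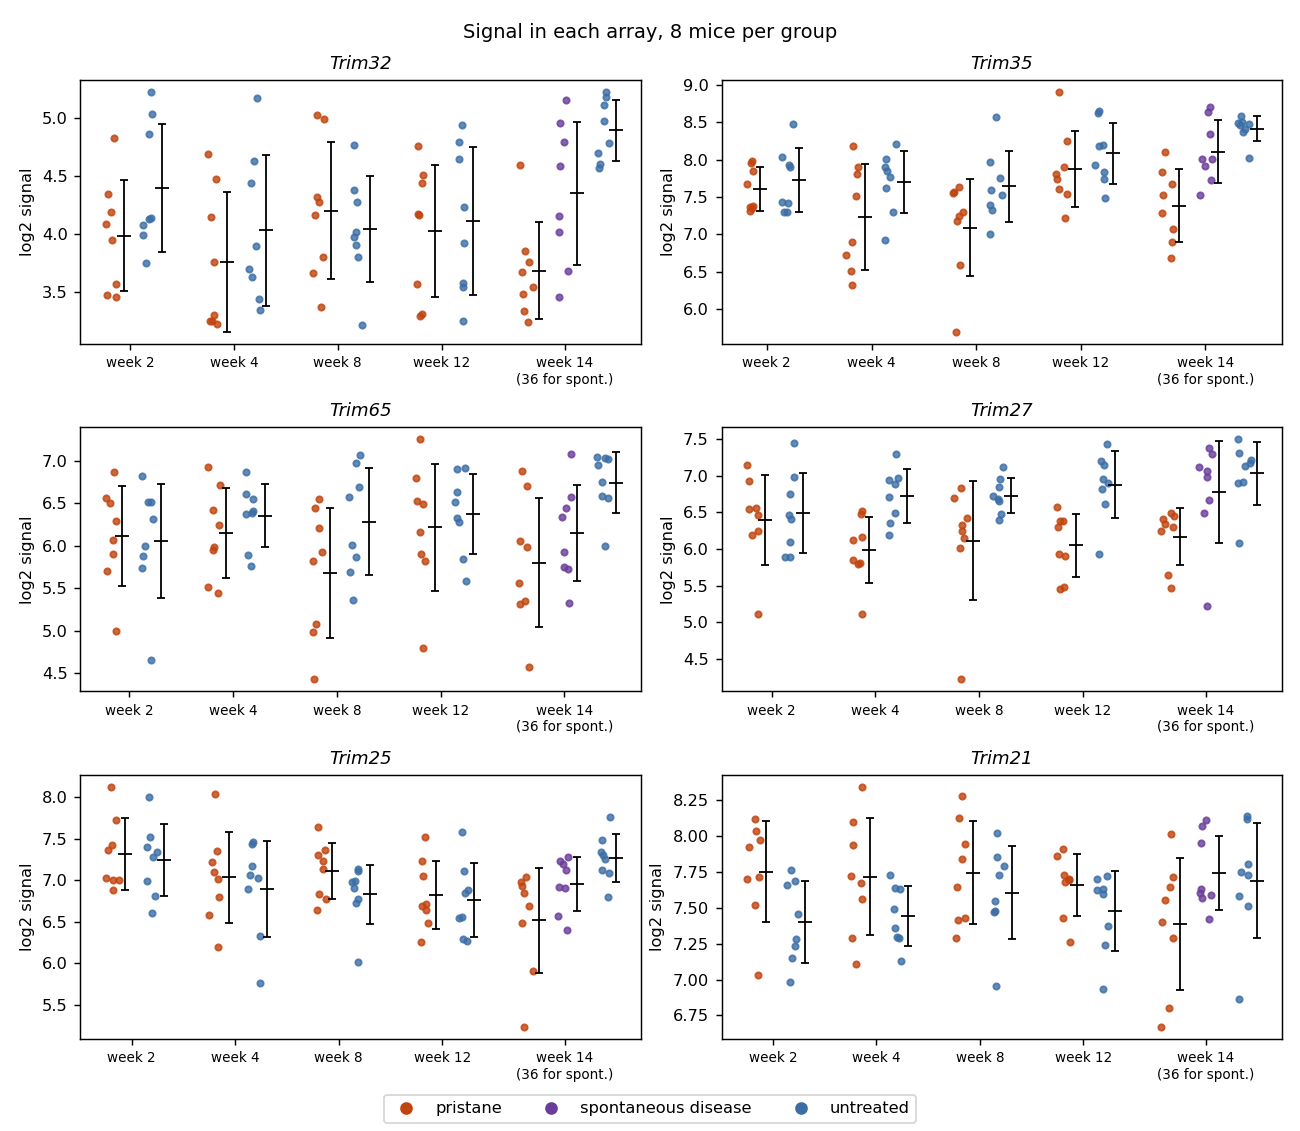
Each point is the log2 signal of 1 array, by week, for the 5 TRIM genes that fell at week 14 and for Trim21, with pristane mice left of untreated mice and the spontaneous group between them at week 14, and the bar gives the mean with its SD (n = 8). The untreated group of week 14 has the highest mean of the untreated groups for Trim32, Trim35, Trim65, Trim27 and Trim25, and Trim21 shows overlapping groups in every week.

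Markers of red cells and of other blood cells moved with week 14. Of 18 measured erythroid genes (26 listed), 8 rose and 0 fell at week 14, where 12.7% of all genes rose and 9.72% fell. The mean log2 level of the 18 was 8.63 in pristane mice (7.85 to 9.84) and 7.70 in untreated mice (7.12 to 8.67) of that week. The other 4 untreated groups averaged between 8.52 and 8.68. With that level as a covariate, Trim25, Trim27, Trim35 and Trim65 no longer passed (adjusted p = 0.24, 0.13, 0.062 and 0.38), Trim32 still did (-0.75, adjusted p = 0.036), and Trim30a and Trim30d passed as higher at week 14 (adjusted p = 0.012 and 0.037). Trim11 also passed as higher (0.51, adjusted p = 0.034), while the week 14 rises of Trim37 and Trim66 were lost (adjusted p = 0.18 and 0.13). All 9 platelet markers rose at week 14, with a mean log2 level of 10.85 in pristane mice (10.29 to 11.27) and 9.95 in untreated mice (9.589 to 10.201). A higher effect at week 14 than at week 2 was called for 7 of the 9, against 4.19% of all genes. Of the lymphocyte markers, 6 of 9 for B cells, 4 of 8 for T cells and 3 of 7 for natural killer cells fell at week 14, and 1 natural killer marker rose. Their mean log2 levels were 8.15, 7.06 and 5.95 in pristane mice, against 8.80, 7.58 and 6.61 in untreated mice. How much of the TRIM results belongs to RNA of any of these cells was not tested.

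The 9 TRIM genes that rose at week 14 were Trim9, Trim54, Trim37, Trim15, Trim62, Trim63, Trim66, Trim71 and Trim47, by 0.42 to 0.79 on the log2 scale. Trim9 belongs to neurons and Trim54 and Trim63 to striated muscle, and 5 of the 9 (Trim15, Trim62, Trim63, Trim66 and Trim71) had a mean signal at or below the median of all deposited values (3.89). Trim54 had a log2 signal of 4.09 to 5.27 (median 4.93) in pristane mice and 3.55 to 4.35 (median 4.09) in untreated mice, with overlapping groups and a 1.70-fold rise (95% CI 1.31 to 2.20, adjusted p = 0.0016). Trim66, a chromatin cofactor of the TIF1 group, ran from 2.77 through 3.22 to 3.897 in pristane mice and from 2.43 through 2.64 to 3.35 in untreated mice (1.47-fold, adjusted p = 0.0052). Against untreated mice of week 12, neither Trim54 nor Trim66 passed (adjusted p = 0.75 and 0.075).

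Few dim genes fell at week 14. Of 6465 genes with a mean at or below that median, 662 rose and 75 fell, with a median change of 0.18. Of 10632 brighter genes, 1506 rose and 1587 fell, with a median of 0.01. Of the 16 dim TRIM genes 5 rose and 0 fell, with a median of 0.22. The interquartile range of the arrays' signals was 3.26 on average in pristane mice and 3.53 in untreated mice of week 14. Trim37, mutated in the human growth disorder mulibrey nanism, was the only one of the 9 with a mean signal above 6. It had a signal of 6.14 to 7.94 (median 6.89) in pristane mice and 5.77 to 6.75 (median 6.07) in untreated mice, a 1.70-fold rise (95% CI 1.19 to 2.44, adjusted p = 0.025). Its call was lost without pristane replicate 1, 5 or 7 (largest adjusted p = 0.074), and of its 4 other probe sets 1 rose at week 14 (1.58, adjusted p = 1.3e-05). Of the other Trim62 probe sets, 1 rose (0.50, adjusted p = 0.0068) and 1 fell (-0.79, adjusted p = 0.0070). Without untreated week 14 replicate 8, 14 TRIM genes rose and 7 fell, where 9 and 5 did with all arrays. The share of all genes called without that array was not counted.

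**Figure D5:**
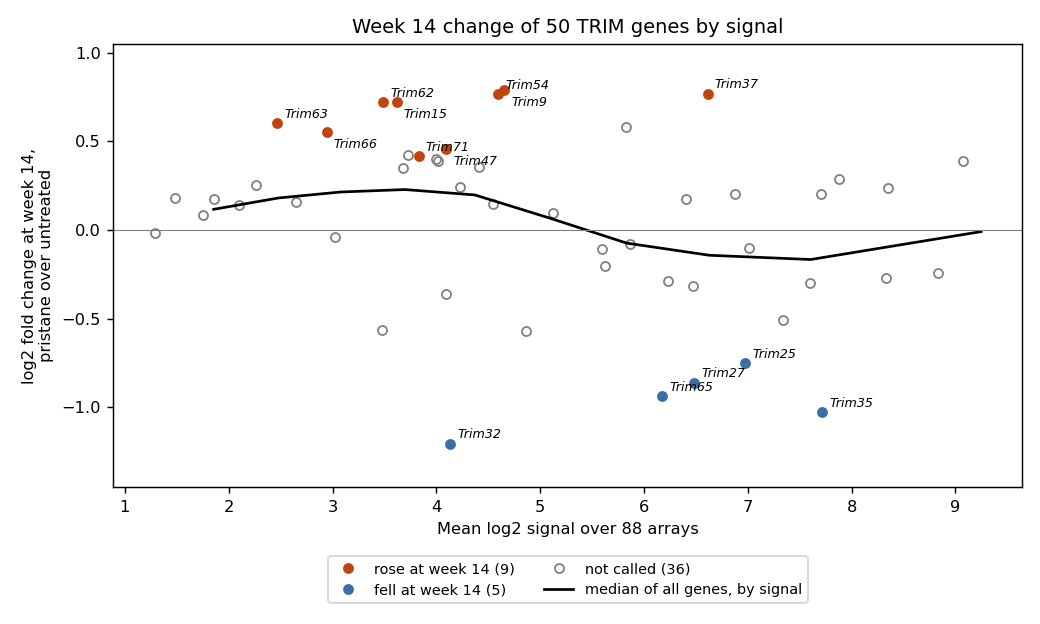
The log2 fold change of pristane over untreated mice at week 14 (vertical) is plotted against the mean log2 signal over 88 arrays (horizontal) for 50 TRIM genes, coloured by call, with the median of all genes along the signal as a line. The 9 risen genes lie mostly at low signal, where the line is above 0, and the 5 fallen genes lie below the line.

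Across the 5 weeks together, 11 TRIM genes were higher and 7 lower in pristane mice, against 12.8% and 13.7% of all genes. The 11 higher were the 5 risen genes of the cluster, Trim6, Trim14, Trim15, Trim59, Trim63 and Trim69. The 7 lower were Trim27, Trim32, Trim33, Trim35, Trim44, Trim65 and Trim7, by 0.27 to 0.63 on the log2 scale. At week 12, Trim33, a transcriptional cofactor of SMAD signalling, had a log2 signal of 6.30 to 7.45 (median 7.13) in pristane mice and 7.01 to 8.09 (median 7.79) in untreated mice, with overlapping groups and a 1.67-fold fall (95% CI 1.27 to 2.20, adjusted p = 0.020). Trim44, which resembles a deubiquitinase, ran from 7.22 through 8.05 to 8.75 in pristane mice and from 8.40 through 8.59 to 9.18 in untreated mice (1.64-fold, 95% CI 1.24 to 2.18, adjusted p = 0.033). The week 12 fall of Trim33 was lost without any of 4 of the 16 arrays, and that of Trim44 without any of 6. With the mean of all probe sets of a gene, Trim33 did not pass at week 12 (-0.40, adjusted p = 0.089). Nor did it pass in the mean of the 5 weeks (-0.14, adjusted p = 0.094). The week 12 call of Trim44 was also lost with only the compared groups in the fit (adjusted p = 0.053). With the erythroid level as a covariate, only 2 TRIM genes were lower in the mean of the 5 weeks (Trim27 and Trim8).

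Of the 50 TRIM genes, 24 were called in no comparison of pristane or spontaneous disease with untreated mice, and of all 17097 genes 37.0% were called in at least 1 of them. They included Trim28, the corepressor that silences endogenous retroviruses, with a log2 signal of 8.07 to 8.68 (median 8.32) in pristane mice and 7.54 to 8.82 (median 8.35) in untreated mice at week 2, a log2 change of 0.01 (95% CI -0.33 to 0.34). At week 14, Trim28 had 7.91 to 9.26 (median 8.61) in pristane mice and 7.57 to 8.58 (median 8.39) in untreated mice, a log2 change of 0.24 (95% CI -0.10 to 0.58). The groups overlapped in both weeks, and the intervals allow changes of up to 0.58. Trim24, another TIF1 member, and the ubiquitin ligases Trim11, Trim39 and Trim41 were also not called. For Trim24 and Trim41, a dimmer probe set fell at week 14 (-0.99 and -1.33, adjusted p = 0.00020 and 0.00031). By class, the 4 TIF1 genes had 1 call at week 14 (Trim66), the 4 genes with NHL repeats 1 rise (Trim71) and 1 fall (Trim32), and the 6 with a COS box, which binds microtubules, 3 rises (Trim9, Trim54 and Trim63), where 12.7% of all genes rose and 9.72% fell.

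In spontaneous disease no TRIM gene passed, nor did any of the 17097 genes (0% called, 594 or 3.47% at an unadjusted p under 0.05). Of the 50 TRIM genes, 3 had an unadjusted p under 0.05, namely Trim71 (0.28), Trim32 (-0.54) and Trim65 (-0.60, all log2). Trim30a had a log2 signal of 8.41 to 9.32 (median 8.83) in spontaneous disease and 8.00 to 9.65 (median 8.96) in untreated mice of week 14, a log2 change of -0.06 (95% CI -0.47 to 0.35). Trim30d ran from 5.30 through 6.04 to 6.70 in spontaneous disease and from 4.50 through 5.87 to 6.66 in untreated mice of week 14, a log2 change of 0.12 (95% CI -0.54 to 0.78). The groups overlapped for both genes. Against the mean of all 5 untreated groups, Trim30d was higher by 1.001 on the log2 scale (adjusted p = 0.031), as the only TRIM gene called. The share of all genes called against that mean was not counted. The interferon effector list averaged 7.10 in spontaneous disease (6.42 to 7.77) and 6.77 in untreated mice of week 14 (6.38 to 7.36).

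The array medians lay between 3.78 and 4.01, a range that quantile normalization narrows by design. The interquartile range of single arrays ran from 2.75 to 3.79. Precision is limited by how many arrays there were. Of markers for the labelled tissue, the 18 erythroid genes averaged between 7.70 and 9.11 in the groups, above the median of all deposited values, while 6 fibrous tissue genes averaged between 3.03 and 3.35, below it. The array titles give a group and a replicate number but no mouse, so each array was treated as its own mouse. On that footing the p-values measure the spread between mice. Whether any mouse was bled at several weeks was not tested. No scan date or plate was given in the sources used here, and batches were not examined.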

How the data were processed

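Whole blood RNA was hybridised to 88 Affymetrix HT MG-430 PM arrays, each treated as 1 mouse. The deposited values are log2 signals that, per the labels, the authors made by RMA (background correction, quantile normalization and summary per probe set) in Partek. RMA narrows differences of dim probe sets. Of 45141 probe sets, 104 controls were left out.

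The fit was limma 3.58.1 (R 4.3.3) on the 11 group means, with 77 residual and 5.81 prior degrees of freedom and Benjamini-Hochberg adjustment over 45037 probe sets. Genes were named from the platform annotation (28898 probe sets with 1 gene, 551 with several, 15588 not listed), 1 probe set per gene by highest mean. The 50 TRIM genes had 81 probe sets. A further TRIM gene is not reported here. Scripts were tested on simulated data.

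Named genes were the interferon-linked and TIF1 members, those past 2-fold, the 3 largest rises and falls per comparison and the 6 brightest uncalled members. Others named (such as Trim47, Trim59, Trim62 and Trim63) were chosen after their values were seen. Members and lists were chosen with earlier results of these data known.

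Alternatives were other scalings, a filter on dim probe sets, the mean of a gene's probe sets, array weights, covariates (interquartile range, erythroid level), a replicate block, fits of the compared groups alone, other controls and leaving out each array.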

Additional observations from a re-analysis of the deposited data

Results flagged for a closer look

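The effect of pristane at week 14 minus that at week 2 differed from 0 for 8 TRIM genes by the test of the difference itself. Of all genes, 4.19% had a higher effect and 2.67% a lower one. It was lower at week 14 for Trim30d (-1.83), Trim34a (-1.45), Trim12c (-1.04), Trim30a (-0.91) and Trim5 (-0.77), and higher for Trim62 (0.97), Trim47 (0.88) and Trim66 (0.68), all on the log2 scale. As given in the results, the calls of Trim30a, Trim34a, Trim12c and Trim66 were lost in some alternative runs.

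Among 286 gene and group combinations, namely 26 TRIM genes in 11 groups of 8, 29 had 1 array set apart from the other 7 by Dixon's criterion. Chance alone sets about 1 in 20 apart. Of the 29, 9 were the same array, untreated week 14 replicate 8. Its log2 signal was the lowest of its group for Trim11 (6.85), Trim27 (6.08), Trim28 (7.57), Trim33 (6.44), Trim34a (5.25), Trim41 (5.60), Trim44 (7.50) and Trim5 (6.95), and the highest for Trim66 (3.35). In the same untreated group, replicate 2 was low for Trim35 (8.02) and replicate 7 for Trim65 (6.002). Arrays numbered 8 were also set apart in other groups, for 2 genes each in pristane weeks 2 and 8. They were set apart for 1 gene each in untreated week 4, spontaneous disease and pristane week 14. What the replicate number stands for is not given, and this recurrence was not tested.

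Among pristane mice of week 14, replicate 7 was low for Trim30a (7.81) and Trim30d (4.59), replicate 8 was low for Trim41 (5.41) and replicate 3 was high for Trim32 (4.59). In earlier pristane groups, low arrays were week 2 replicate 8 for Trim24 (3.70) and Trim27 (5.11), week 8 replicate 8 for Trim27 (4.22) and Trim28 (7.25), and week 12 replicate 6 for Trim30d (4.63). In spontaneous disease, replicate 8 was low for Trim27 (5.22).

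In earlier untreated groups, Trim30d was low in week 4 replicate 6 (3.16) and week 12 replicate 2 (3.88), and Trim25 in week 8 replicate 6 (6.02). High arrays were week 4 replicate 8 (5.28) and week 12 replicate 7 (4.56) for Trim12a, week 2 replicate 7 (2.40) and week 12 replicate 2 (2.03) for Trim6, and week 2 replicate 1 for Trim66 (3.61).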

How the results depend on the processing

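Signs were compared only for the 26 TRIM genes named by rule, and none of their called values changed sign under any alternative run. Counts over the TRIM genes were within 1.5 times of those reported except as follows. Centring on the brightest probe sets gave 1 TRIM gene lower at week 4 (0 as reported), and so did array weights, the interquartile range as a covariate and the replicate block. Keeping only probe sets above the median gave 5 higher at week 14 (Trim9, Trim37, Trim47, Trim54 and Trim69). It also gave 1 higher in the difference of effects between weeks 14 and 2 (Trim47). Among the 34 TRIM genes above the median, the main fit had 4 higher at week 14, without Trim69, and 1 higher in the difference. Averaging a gene's probe sets left 1 lower at week 12. Array weights also gave 1 lower at week 2, 8 lower at week 14, 12 lower in the difference of effects, and 4 higher and 6 lower in untreated mice between weeks 14 and 12, where fitting only the compared groups gave 1 lower. The erythroid covariate gave 2 lower in the mean of the 5 weeks, 1 lower at week 2 and 2 lower at week 14. With untreated mice of week 12 as control, 2 were higher and 1 lower at week 14. With all untreated mice as control, 1 was higher in spontaneous disease. The cause of these changes was not tested. Shares of all genes were not counted for the alternative runs or with an array left out.

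Leaving out 1 array at a time gave 10 to 12 higher and 6 to 7 lower in the mean of the 5 weeks, 5 to 6 higher at week 2, 4 to 5 at week 4, 5 at week 8, 2 to 4 higher and 0 to 3 lower at week 12, and 6 to 14 higher and 4 to 7 lower at week 14. The difference of effects had 2 to 5 higher and 3 to 7 lower. The highest counts of week 14 and of the difference came without untreated week 14 replicate 8. At week 12, 2 rather than 4 were higher without pristane replicate 1, and 0 lower without pristane replicate 6.

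Replicate numbers were not taken to pair the samples in the main fit. Same-numbered deviations correlated between -0.24 and 0.54 over 40 pairs, 10 of them over 0.1, and 8 of 40 pristane arrays correlated best with their own number. The replicate block gave 4 lower at week 12 and 1 lower at week 4 and left the other counts within 1.5 times.

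The median change of all genes at week 14 was 0.12 as deposited, 0.09 after quantile normalization and 0.23 with centring on the brightest probe sets. Dim probe sets such as those of Trim6 and Trim2 lie near the low end of the signal range, and the deposited values hold no detection call.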
